A study of Cricetiscus sungorus with 12 samples.

Results

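Tau, the microtubule-associated protein made from Mapt, was examined in the hypothalamus of the Djungarian hamster together with enzymes that add phosphate to it or take it off. The set holds 10 of the 17191 GeneIDs in the count tables. It comprises Mapt (GeneID 17762), the kinases Gsk3a (606496), Gsk3b (56637), Cdk5 (12568) and Dyrk1a (13548), the CDK5 activator Cdk5r1 (12569), and the phosphatase catalytic subunits Ppp2ca (19052), Ppp1ca (19045), Ppp1cb (19046) and Ppp1cc (19047). The members were fixed by these mouse GeneIDs rather than by a cutoff on measured values, but with earlier results of these data known. Cdk5r1 is a regulator and not itself a kinase.

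Tau binds along microtubules in neurons, chiefly in axons, and loosens from them when it is heavily phosphorylated. GSK3 and CDK5 are the classical tau kinases, DYRK1A phosphorylates tau at sites that prepare it for GSK3, and protein phosphatase 2A is the main tau phosphatase of the brain, with protein phosphatase 1 as another. Reversible phosphorylation of tau is known from the brains of hibernating and torpid mammals. Here only mRNA was measured, so no value below describes tau protein, its phosphorylation or the activity of an enzyme.

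The 12 adult hamsters of both sexes came from 1 breeding colony and fell into 3 groups of 4, all sampled at ZT 4, 4 h after lights on. LP-NT hamsters remained in long photoperiod with 16 h of light per day and were normothermic. SP-NT hamsters were adapted to short photoperiod with 8 h of light and were normothermic on a day without torpor, and SP-HT hamsters were adapted to the same short photoperiod and were hypothermic in spontaneous daily torpor. The labels name no strain, transgene or drug. The short-photoperiod hamsters carried a telemetry transmitter and the LP-NT hamsters did not, so photoperiod and surgery cannot be told apart in the comparisons with LP-NT, and SP-NT hamsters had also shown torpor on earlier days. By the labels, sex was uneven, with 3 males and 1 female in SP-HT and 2 of each in the other groups. Polyadenylated RNA of the whole hypothalamus was sequenced, and in such bulk tissue fewer cells of a type and less RNA per cell cannot be told apart. The tissue label was not checked against marker genes, because no gene names accompany the GeneIDs in the tables.

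The 12 libraries held 20204979 to 24186918 expected counts each, with SP-NT libraries at 22860110 or more and SP-HT libraries at 23018123 or fewer. At this depth 1 count equals 0.0403 to 0.049 CPM, the counts scaled to the library total after TMM normalization used for each gene across hamsters below. Hamster LP-NT 01 stood apart for 43.1% of all GeneIDs, where it was the highest or lowest of the 12, against 7.32 to 19.2% for each of the other 11. Hamster SP-NT 19 is labelled male but had 0 counts for GeneIDs 20592 and 22290, which held 979 to 1699 and 342 to 462 counts in the other 6 males and 2 to 5 and 0 in the 5 females. Were SP-NT 19 female, sex would be more uneven between SP-NT and SP-HT than the labels state. Results that turn on either hamster are given with and without it.

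For levels compared between genes, TPM was used, which divides each count by transcript length. Mapt averaged 282 TPM over the 12 hamsters, a median percentile of 97.3 among all GeneIDs. Ppp1cb averaged 264 TPM, and its range of 246 to 283 TPM overlapped that of Mapt at 222 to 299 TPM. Within SP-NT these leading genes were separate, with Mapt at 279 TPM or more and Ppp1cb at 267 TPM or less.

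Ppp2ca, the catalytic subunit alpha of protein phosphatase 2A, followed at 189 TPM and overlapped neither neighbour. Below it, Ppp1cc (132 TPM), Gsk3a (123), Cdk5r1 (114), Gsk3b (105) and Cdk5 (99.4) formed a run in which each gene's TPM range overlapped that of the next. Dyrk1a lay apart at 61.8 TPM, a median percentile of 79.6. Ppp1ca was the lowest at 6.59 TPM, a median percentile of 29.3.

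**Figure D1:**
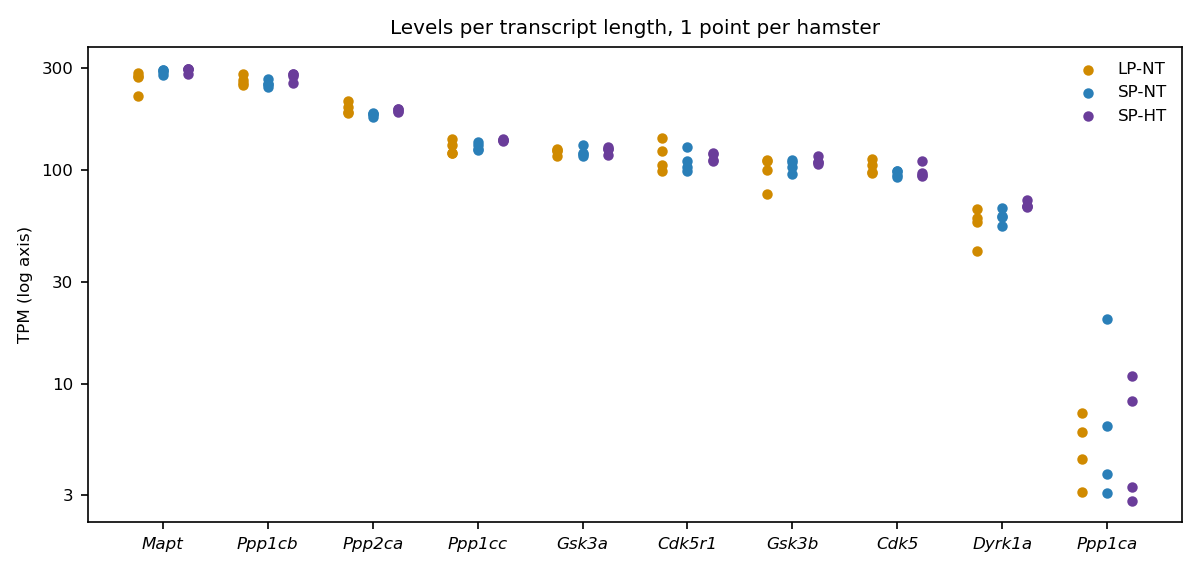
TPM (vertical log axis) of the 10 genes in order of their mean over 12 hamsters, with 1 point per hamster coloured by group. Mapt, Ppp1cb and Ppp2ca lie at the top, 6 genes lie between Ppp2ca and Ppp1ca, and Ppp1ca spreads from 2.82 to 20.01 TPM.

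The catalytic subunits of protein phosphatase 1 kept a similar division in every library. Ppp1cb supplied 64.0 to 67.6% of the summed TPM of the 3 genes and Ppp1cc 30.3 to 35.2%. Ppp1ca supplied 0.704 to 4.86%, a share limited by its low counts and uneven transcript length. In LP-NT 05 it had 8 counts, the lowest in LP-NT, yet the highest TPM there, 7.27, at a length of 140 bases. The 3 groups overlapped in each of these shares, and no test was run on them.

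The 2 GSK3 genes were close to each other in level. Gsk3b stood at 0.814 to 0.944 of the Gsk3a TPM in 11 hamsters, and at 0.625 in LP-NT 01. The ratio of Cdk5r1, which encodes the p35 activator, to Cdk5 was 1.02 to 1.296 across the 12 hamsters with overlapping groups.

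The first comparison, SP-NT against LP-NT, asks what photoperiod did at normal body temperature. None of the 10 genes differed in edgeR's quasi-likelihood fit, with p adjusted by Benjamini-Hochberg over the whole table, against 0.0370% of all GeneIDs tested. DESeq2 also called 0 of the 10, against 0.212% of the GeneIDs it tested, and 0 of the 10 had an unadjusted p under 0.05 in either tool. Their median log2(FC) was -0.025, beside -0.0024 for all GeneIDs tested, and 4 of 10 were above 0.

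Mapt read 316, 341, 357 and 350 CPM in the LP-NT hamsters and 347, 355, 349 and 358 CPM in the SP-NT hamsters. The SP-NT values all lay inside or just above the LP-NT range, with LP-NT 01 the lowest of all. The log2(FC) was 0.045 (SE 0.0523, 95% confidence interval -0.071 to 0.16), with an adjusted p of 0.929 in edgeR.

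Ppp2ca was the member whose groups did not overlap in this comparison, a pattern found for 3.44% of all GeneIDs. It read 381, 315, 340 and 316 CPM in the LP-NT hamsters and 306, 307, 313 and 305 CPM in the SP-NT hamsters. All SP-NT hamsters lay below all LP-NT hamsters, though the nearest values, 315 and 313 CPM, were almost equal and LP-NT 01 was well above the rest. The log2(FC) was -0.14 (SE 0.0656) with an unadjusted p of 0.0636 and an adjusted p of 0.913 in edgeR. Without LP-NT 01 the log2(FC) was -0.074.

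Cdk5 had the lowest log2(FC) in this comparison, -0.15 (95% confidence interval -0.33 to 0.026). Its CPM were 69.7 to 91.2 in the LP-NT hamsters, overlapping the 68.3 to 72.6 of the SP-NT hamsters, and LP-NT 01 held the highest value. Without LP-NT 01 the log2(FC) of Cdk5 was -0.073.

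Several signs in the photoperiod comparison rested on LP-NT 01. Without it, log2(FC) went from 0.038 to -0.050 for Gsk3b and from 0.067 to -0.031 for Dyrk1a. It went from -0.12 to 0.0066 for Cdk5r1 and from -0.016 to 0.056 for Ppp1cc. None of these values passed the adjusted threshold with or without the hamster.

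In the members, LP-NT 01 was an extreme of its group for all 10 genes, as it was for 69.5% of all GeneIDs, and an extreme of the 12 hamsters for 7. It was the lowest of 12 for Mapt, Gsk3b and Dyrk1a and the highest for Cdk5, Cdk5r1, Ppp2ca and Ppp1cc. Gsk3b read 103 CPM there and 118 to 156 CPM in the other 11 hamsters, and Cdk5r1 read 177 CPM there and 116 to 149 CPM in the others.

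**Figure D2:**
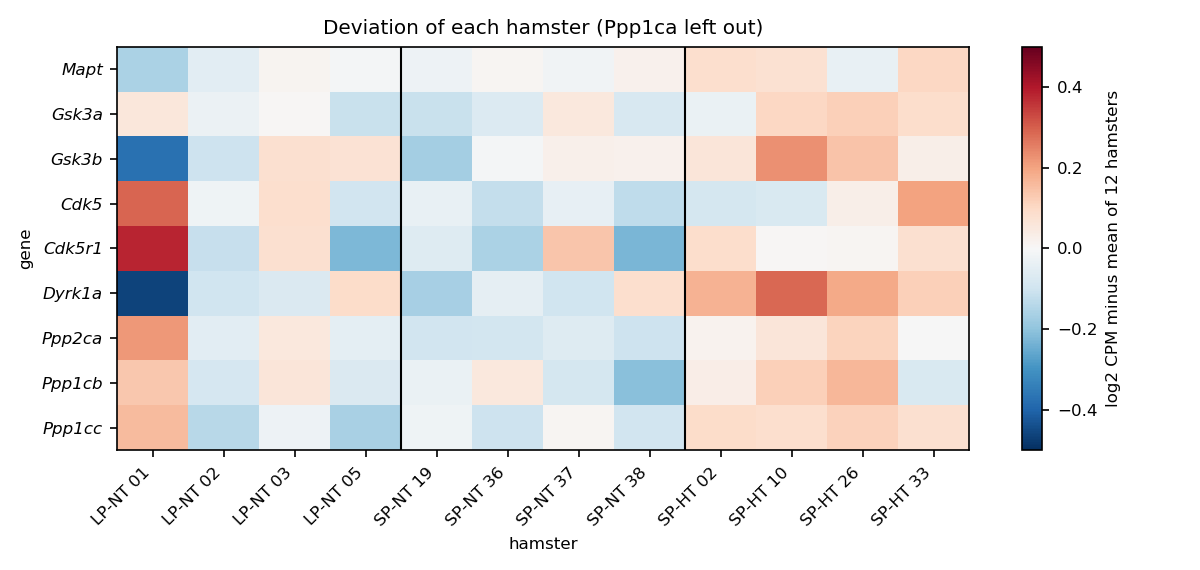
Heat map of log2 CPM minus the mean of the 12 hamsters (colour scale, log2 units) for 9 genes in rows and hamsters in columns, with lines between the groups. LP-NT 01 shows the deepest colours, blue for Gsk3b and Dyrk1a and red for Cdk5 and Cdk5r1.

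The second comparison, SP-HT against SP-NT, asks what accompanied torpor within short photoperiod. Its directions follow the sample labels alone and are in doubt. The labels and the study's own account do not give this contrast 1 sign. The paper lists Ppp1cc as downregulated in torpor, whereas by the labels its log2(FC) here was positive. In the study's supplement, the hamster numbers labelled SP-HT had low terminal body temperatures and those labelled SP-NT had normothermic ones, as labelled. Whether the labels of the libraries or the sign in the paper were reversed was not tested, and no other gene was examined for it. If the labels SP-HT and SP-NT were exchanged, every sign in this comparison would turn while sizes and p-values stayed, and the values given for each of these groups against LP-NT would change places. By the labels, Dyrk1a, Ppp2ca, Ppp1cc and Gsk3b had higher CPM in every hamster labelled SP-HT than in any labelled SP-NT, by 1.10 to 1.19-fold. None of the 10 genes passed the adjusted threshold in edgeR, which called 2.40% of all GeneIDs tested. At an unadjusted p under 0.05 there were 5 of 10, against 18.4% of all GeneIDs. DESeq2 called 3 of 10, namely Dyrk1a, Ppp2ca and Ppp1cc, all higher in the libraries labelled SP-HT, against 6.96% of the GeneIDs it tested.

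Counted by overlap, 4 of the 10 genes had groups apart, all higher in the libraries labelled SP-HT. Among all GeneIDs tested, 12.1% had groups apart in either direction and 4.74% were apart and higher in SP-HT. In GeneIDs with a mean of at least 50 CPM, where 9 of the 10 members fall, 8.72% were apart and higher. The log2(FC) was above 0 for 9 of 10 members, beside 49.4% of all GeneIDs and 69.0% of those with at least 50 CPM. The median was 0.12 for the members, -0.0027 for all GeneIDs and 0.046 for those with at least 50 CPM. These counts describe the members, and no test was made over them.

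Dyrk1a, the kinase that primes tau for GSK3, had the largest log2(FC) among the members. Its values were 58.7, 63.7, 61.3 and 69.8 CPM in SP-NT and 74.2, 80.3, 75.1 and 71.5 CPM in SP-HT. Every SP-HT hamster lay above every SP-NT hamster, with SP-NT 38 and SP-HT 33 nearest to each other.

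The log2(FC) of Dyrk1a was 0.25 (SE 0.0634, 95% confidence interval 0.11 to 0.39), a 1.19-fold level. The unadjusted p was 0.00265 and the adjusted p was 0.0710 in edgeR, so it missed the threshold, whereas the adjusted p in DESeq2 was 0.00926. The groups were also apart in TPM, with 54.6 to 66.3 in SP-NT and 66.9 to 72.7 in SP-HT. In DESeq2 with length factors the adjusted p of Dyrk1a was 0.0347. With 1 hamster left out at a time, the adjusted p of Dyrk1a was 0.0566 to 0.170 in edgeR and 0.00134 to 0.0731 in DESeq2.

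Ppp2ca had 306, 307, 313 and 305 CPM in SP-NT and 331, 341, 353 and 327 CPM in SP-HT. The SP-NT hamsters were within 8 CPM of each other, and all SP-HT hamsters were above them. The log2(FC) was 0.14 (SE 0.0406, 95% confidence interval 0.046 to 0.22) with an adjusted p of 0.108 in edgeR and 0.0109 in DESeq2. In TPM the groups stayed apart, at 177 to 185 against 188 to 193, but the log2(FC) on the log2(TPM + 1) scale was 0.066 with an adjusted p of 0.406 in limma. In DESeq2 with length factors Ppp2ca was not called, with a log2(FC) of 0.11 and an adjusted p of 0.0526.

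Ppp1cc, the gamma catalytic subunit of protein phosphatase 1, had 151, 143, 154 and 143 CPM in SP-NT and 163, 162, 166 and 162 CPM in SP-HT. The hamsters labelled SP-HT were tightly grouped and lay above all those labelled SP-NT, a direction that rests on the labels. For Ppp1cc the log2(FC) was 0.14 (SE 0.0421, 95% confidence interval 0.050 to 0.24), with an adjusted p of 0.104 in edgeR and 0.0186 in DESeq2. In DESeq2 with length factors it was 0.14 with an adjusted p of 0.0485. The same setting called 759 GeneIDs for torpor and 32 for photoperiod. The numbers of regulated genes in the paper are the same for both comparisons, and its adjusted p for Ppp1cc is close. The sign is what differs, because the paper lists Ppp1cc as downregulated in torpor. The reason for the opposite sign was not tested.

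Gsk3b had 118, 132, 135.28 and 135 CPM in SP-NT and 139, 156, 146 and 135.43 CPM in SP-HT. The groups were apart only by the small step from SP-NT 37 to SP-HT 33, and in TPM they overlapped. This gave a log2(FC) of 0.15 (SE 0.0604) with an adjusted p of 0.234 in edgeR and 0.155 in DESeq2. Its paralog Gsk3a, with 97.2 to 108.8 CPM in SP-NT and 103 to 114 CPM in SP-HT, overlapped and had a log2(FC) of 0.12 (SE 0.0537) with an adjusted p of 0.267 in edgeR.

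Mapt itself had 347, 355, 349 and 358 CPM in SP-NT and 374, 372, 344 and 379 CPM in SP-HT. Among the hamsters labelled SP-HT 3 lay above all SP-NT hamsters, whereas SP-HT 26 lay below all of them. Its log2(FC) was 0.060 (SE 0.0436, 95% confidence interval -0.037 to 0.16) with an adjusted p of 0.507 in edgeR. By the labels, the upper bound of that interval corresponds to a 1.11-fold level in SP-HT over SP-NT, and larger ratios of Mapt mRNA lie outside it.

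Cdk5 and its activator overlapped between SP-NT and SP-HT. Cdk5 had 68.3 to 72.6 CPM in SP-NT and 70.2 to 85.7 CPM in SP-HT, with a log2(FC) of 0.10 and an adjusted p of 0.466 in edgeR. Cdk5r1 had 116 to 149 CPM and 136 to 144 CPM, with a log2(FC) of 0.12 and an adjusted p of 0.412 in edgeR. The SP-HT hamsters were closer to each other for Cdk5r1, with an SD of 4.28 CPM against 14.6 CPM in SP-NT, and that difference in spread was not tested.

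Ppp1cb, the most abundant catalytic subunit of protein phosphatase 1 here, had 181 to 216 CPM in SP-NT and 198 to 234 CPM in SP-HT. Its log2(FC) was 0.13 (SE 0.0657) with an adjusted p of 0.329 in edgeR.

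**Figure D3:**
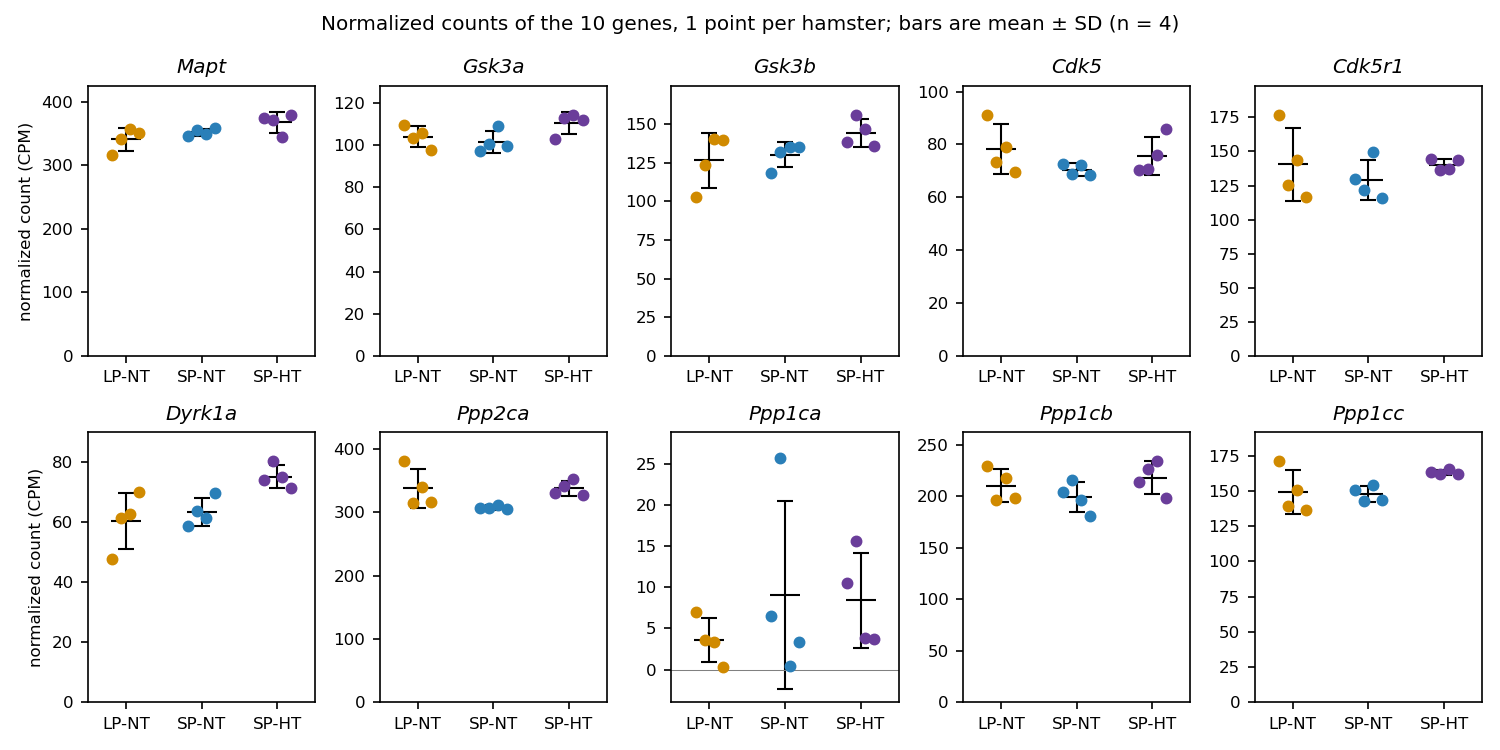
CPM (vertical axes) of the 10 genes in LP-NT, SP-NT and SP-HT, with 1 point per hamster and bars for mean and SD (n = 4). In Dyrk1a, Ppp2ca and Ppp1cc the SP-HT points lie above all SP-NT points, and in Ppp1ca the points spread from 0.365 to 25.7 CPM.

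The calls for torpor depended on the tool and on single hamsters. DESeq2 called 0 of the 10 genes without SP-NT 19, the hamster whose sex label its counts did not match, with adjusted p of 0.0594 for Dyrk1a, 0.0660 for Ppp2ca and 0.0504 for Ppp1cc. It also called 0 of 10 without SP-HT 10. Without each of the other 6 hamsters in turn it called 1 to 4, the 4 including Cdk5r1 with an adjusted p of 0.0233 when SP-NT 37 was left out. Dyrk1a was called in 6 of these 8 fits, Ppp2ca in 3 and Ppp1cc in 2. The log2(FC) of the 9 members above 0 stayed above 0 under every setting and with every hamster left out, but all settings draw on the same hamsters. On log2(TPM + 1) all 9 were smaller, at 0.023 for Mapt, 0.033 for Gsk3a and for Cdk5, and 0.18 for Dyrk1a. With all 12 samples in 1 edgeR fit, the adjusted p was 0.249 for Dyrk1a, 0.279 for Ppp2ca and 0.298 for Ppp1cc.

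**Figure D4:**
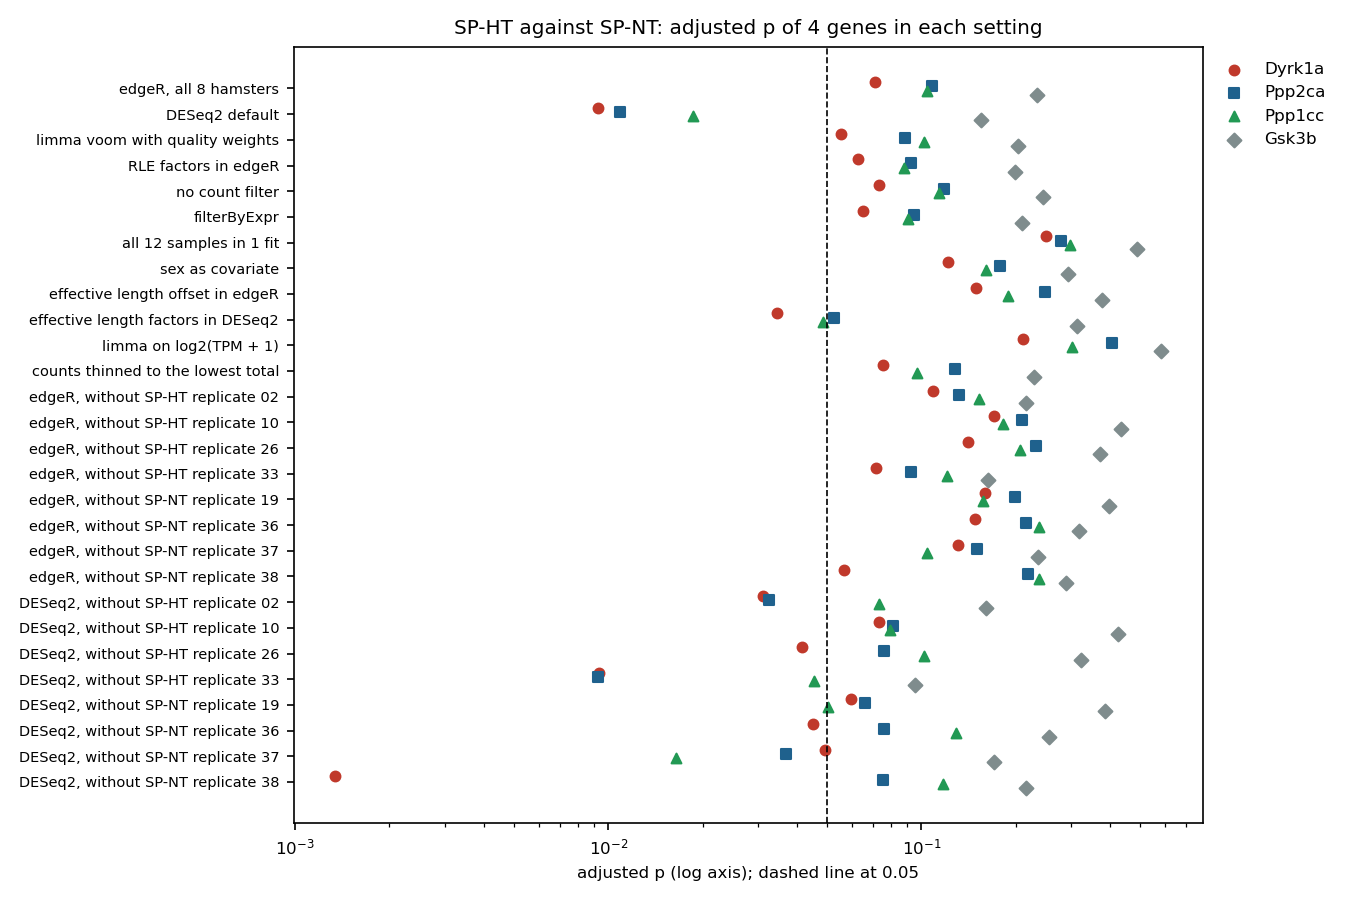
Adjusted p (horizontal log axis) of Dyrk1a, Ppp2ca, Ppp1cc and Gsk3b for SP-HT against SP-NT, with 1 line per test, normalization or left-out hamster and a dashed line at 0.05. Points left of the line occur in DESeq2 fits, and all edgeR and limma points lie to its right.

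The third comparison, SP-HT against LP-NT, differs in photoperiod and torpor together and shares its hamsters with the other comparisons. edgeR called 0 of 10 genes, against 1.37% of all GeneIDs, and DESeq2 0 of 10, against 4.74% of the GeneIDs it tested. At an unadjusted p under 0.05 edgeR had 1 of 10, Dyrk1a, which was also the member whose groups were apart, as 10.6% of all GeneIDs were. Dyrk1a had 47.7, 61.4, 62.7 and 70.1 CPM in LP-NT, all below the 71.5 to 80.3 CPM of SP-HT.

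The log2(FC) of Dyrk1a in SP-HT against LP-NT was 0.32 (SE 0.106, 95% confidence interval 0.087 to 0.56), with an unadjusted p of 0.0118 and an adjusted p of 0.184 in edgeR and 0.0759 in DESeq2. Without LP-NT 01 it was 0.22, with an adjusted p of 0.148 in edgeR. DESeq2 called Dyrk1a without LP-NT 05 (adjusted p of 0.0160) and Ppp1cc without LP-NT 01 (adjusted p of 0.0131), and called no member in the other 6 fits that left out a hamster.

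Mapt stood at a log2(FC) of 0.11 (95% confidence interval -0.023 to 0.25) between SP-HT and LP-NT, with an adjusted p of 0.426 in edgeR. Ppp2ca, whose SP-NT values lay below those of both other groups, was at 338 ± 30.7 CPM in LP-NT and 338 ± 11.8 CPM in SP-HT (SD, n = 4), a log2(FC) of 0.0089 (95% confidence interval -0.14 to 0.16). The intervals of the other members with a mean of at least 50 CPM all included 0.

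**Figure D5:**
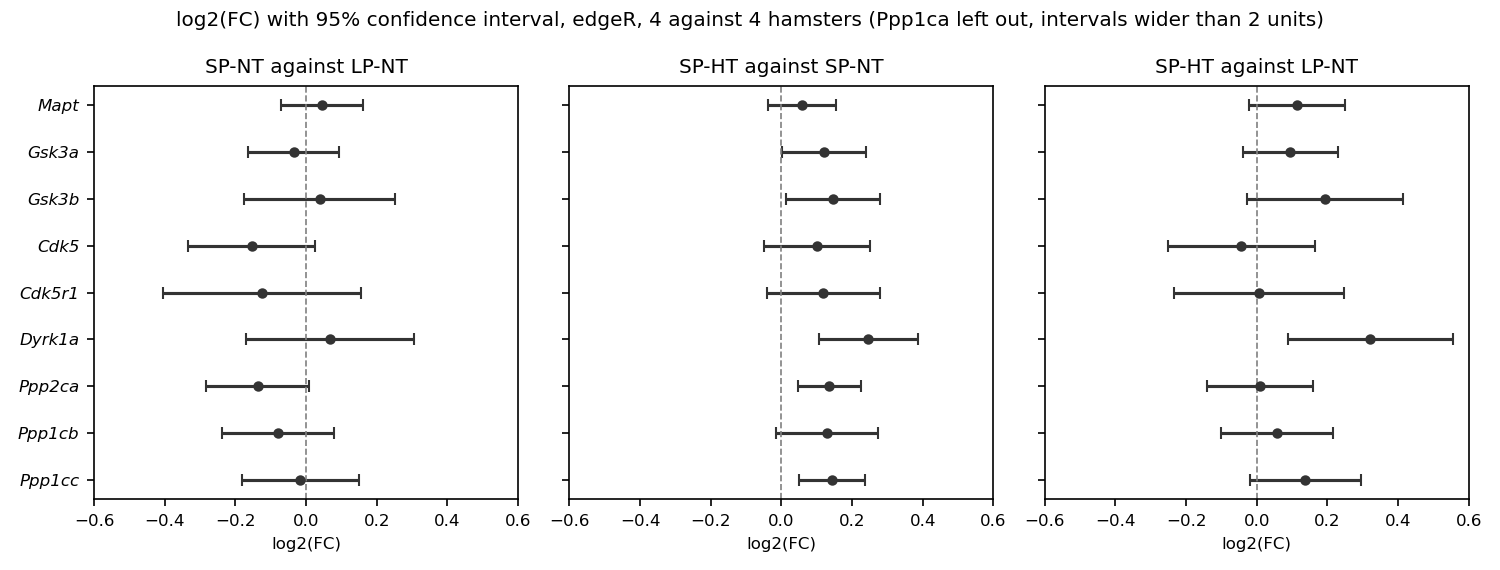
log2(FC) (horizontal axis) with 95% confidence intervals from edgeR for 9 genes in the 3 comparisons, 4 hamsters per group. For SP-HT against SP-NT all 9 points lie right of 0, and the interval of Dyrk1a reaches from 0.11 to 0.39.

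Ppp1ca, the alpha catalytic subunit of protein phosphatase 1, was measured at low and uneven counts. In LP-NT its expected counts were 155, 81.5, 73.9 and 8. They were 159, 617.51, 11 and 84.1 for SP-NT hamsters, and 240, 323, 80.7 and 76.5 for SP-HT hamsters. Single hamsters differed by more than the groups, and SP-NT 36 held the most. The log2(FC) in torpor was -0.10 with a 95% confidence interval of -1.90 to 1.69, and without SP-NT 36 it was 1.27. Its assembled transcripts shared a Trinity component with those of Ppp1cc, as 44.9% of GeneIDs shared one with another GeneID, so reads could be split between these paralogs. Mapt, Gsk3a, Dyrk1a and Ppp2ca shared components with GeneIDs outside the set, so the same limit applies to them. Gsk3b, Cdk5, Cdk5r1 and Ppp1cb shared none. The effective length of Ppp1ca, the expression-weighted length of its transcripts, ran from 140 bases in LP-NT 05 to 3849 bases in SP-HT 10.

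The assembly held 25 transcripts under Mapt, against a median of 6 for all GeneIDs, and 2 to 11 under each of the other members. A GeneID joins these transcripts, so splice forms of tau are not resolved in the gene-level files. A change in which transcripts carry the reads would appear as a change in effective length. For Mapt this length was 3555 ± 148 bases for LP-NT, 3414 ± 79.5 for SP-NT and 3375 ± 118 for SP-HT (SD, n = 4), overlapping throughout.

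No member passed the adjusted threshold for effective length in limma. Of all GeneIDs tested for length, 0% were called for SP-NT against LP-NT, 0.122% for SP-HT against SP-NT and 0.123% for SP-HT against LP-NT. At an unadjusted p under 0.05 there were 0, 1 and 1 members, Gsk3a both times.

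Gsk3a had an effective length of 2330, 2350, 2329 and 2319 bases in SP-NT and 2359, 2388, 2397 and 2412 bases in SP-HT. All hamsters labelled SP-HT lay above all those labelled SP-NT, and above all LP-NT hamsters as well. The step to LP-NT was small, from LP-NT 03 at 2356 bases to SP-HT 02 at 2359 bases. It was the 1 member apart in length for SP-HT against SP-NT, where 8.89% of GeneIDs were apart, and for SP-HT against LP-NT, where 8.19% were; for SP-NT against LP-NT no member was apart, beside 2.65% of GeneIDs. The log2 length difference was 0.035 (SE 0.0108) with an adjusted p of 0.252 between SP-HT and SP-NT, and 0.039 (SE 0.0123) with 0.279 between SP-HT and LP-NT in limma.

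Among the 10227 GeneIDs with a mean of at least 10 CPM, those with the highest Pearson r of log2 CPM with Mapt over the 12 hamsters were 227648 (r of 0.945, Spearman rho of 0.874), 13211 (0.939 and 0.776) and 100042480 (0.931 and 0.909). Without LP-NT 01 and SP-HT 33, the hamsters farthest from the Mapt median, r was 0.882, 0.838 and 0.925, so that the third of these had the highest rho and the highest r without those hamsters. Of the members, Dyrk1a had r of 0.805 and rho of 0.622, and Gsk3b 0.739 and 0.490. The others compared had r of 0.0492 (Gsk3a), -0.0138 (Ppp1cc), -0.22 (Ppp1cb), -0.311 (Cdk5r1), -0.37 (Ppp2ca) and -0.377 (Cdk5). Without the same hamsters r was 0.613 for Dyrk1a, 0.545 for Gsk3b and -0.364 for Cdk5. It was then 0.121 to 0.428 for Gsk3a, Ppp1cc, Ppp1cb, Cdk5r1 and Ppp2ca. These values are descriptions over points that share groups and normalization, chosen from many, and were not tested.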

How the data were processed

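Paired-end mRNA reads of 12 hypothalami were processed by the authors with FastQC 0.11.9, Trim Galore 0.6.6, Bowtie 1.3.0 and RSEM 1.3.1. All reads were pooled into 1 Trinity assembly, and transcripts were grouped by the mouse (GRCm39) GeneID of their best protein match. The deposited values used here are RSEM expected counts per GeneID, which were rounded, the deposited TPM, and the effective length in bases computed by the authors with RSEM. The depth was 20204979 to 24186918 expected counts per sample. Groups were taken from the labels.

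Each pair of groups was fitted with edgeR 4.0.16 (quasi-likelihood, TMM, at least 10 counts summed over the pair, Benjamini-Hochberg over all GeneIDs, threshold 0.05) in R 4.3.3. CPM used TMM factors over all 12 samples. log2 effective length was fitted with limma 3.58.1 where a GeneID held over 1 transcript and averaged at least 50 counts. Scripts were tested on simulated data. Alternatives were DESeq2 1.42.0, limma voom, limma on log2(TPM + 1), other normalization, filters, samples, a sex term, length terms, thinned counts and left-out hamsters. The sex term used the labels.

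The 18 pairs of libraries within groups were no duplicates (chi-square of 7.01 to 39.2 per degree of freedom). The members and gene lists were chosen with earlier results of these data known. All members were to be named, with the GeneIDs most like Mapt, of which the leading ones are given. Gene lists and cell type markers set by symbol (235 genes) could not be matched to GeneIDs and are not analysed here, and no sequences were used here.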

Additional observations from a re-analysis of the deposited data

Results flagged for a closer look

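In 90 groups of 4 hamsters (CPM, TPM and effective length of the 10 genes), 2 values lay far from the other 3 of their group, where chance gives about 1 in 20 groups. Mapt stood at 280.8 TPM in SP-HT 26, against 297.1 to 299.2 TPM in the other SP-HT hamsters. The effective length of Ppp1cb was 2015 bases in SP-NT 38, against 2244 to 2255 bases in the other SP-NT hamsters.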

How the results depend on the processing

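Of 810 member values under alternatives, 744 kept their sign and side of the threshold, 19 passed it and 47 changed sign, 34 of those with a hamster left out; the causes were not tested. Members called for torpor went from 0 in edgeR to 3 in DESeq2 and 2 in DESeq2 with length factors, and with 1 hamster left out to 0 in edgeR and 0 to 4 in DESeq2; for SP-HT against LP-NT the DESeq2 range was 0 to 1. DESeq2 with hamsters left out was added after seeing the data. GeneIDs called for photoperiod went from 6 to 33 in DESeq2 and 32 with length factors, and with hamsters left out to 5 to 8 in edgeR and 16 to 41 in DESeq2. For torpor they went from 389 to 1017 in DESeq2, 242 with sex, 146 with a length offset, 759 with DESeq2 length factors and 116 on log2(TPM + 1), and with hamsters left out to 104 to 318 in edgeR and 507 to 1066 in DESeq2. For SP-HT against LP-NT they went from 221 to 706 in DESeq2, 416 in voom, 612 with all 12 samples, 102 with a length offset, 623 with DESeq2 length factors and 80 on log2(TPM + 1), and with hamsters left out to 55 to 200 in edgeR and 370 to 613 in DESeq2. No paired analysis was possible because the groups compared held different hamsters, also where they share a replicate number. Alternatives on gene lists were not run, since the lists could not be matched. The low counts of Ppp1ca limit its values. Signs changed as follows, none with an adjusted p under 0.05. In voom the photoperiod log2(FC) was -0.015 for Gsk3b and 0.032 for Ppp1cc, and on log2(TPM + 1) it was 0.019 for Ppp1cc. The torpor log2(FC) of Ppp1ca was 0.55 in voom and 0.28 with sex. For SP-HT against LP-NT, Cdk5r1 and Ppp2ca were at -0.030 and -0.018 with sex, -0.010 and -0.019 with a length offset, -0.0046 and -0.013 with DESeq2 length factors, and -0.0080 and -0.031 on log2(TPM + 1). With a hamster left out in edgeR or DESeq2, photoperiod log2(FC) ranged from -0.050 to 0.093 for Gsk3b, -0.055 to 0.056 for Ppp1cc, -0.20 to 0.0066 for Cdk5r1, -0.031 to 0.15 for Dyrk1a and -0.045 to 1.89 for Ppp1ca. Torpor log2(FC) of Ppp1ca ranged from -0.58 to 1.29. For SP-HT against LP-NT the ranges were -0.073 to 0.14 for Cdk5r1, -0.021 to 0.073 for Ppp2ca and -0.11 to 0.039 for Cdk5.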
